A study of Canis lupus familiaris with 6 samples.

Results

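Focal adhesions are the sites where integrin receptors, bound to extracellular matrix outside the cell, are joined to actin filaments inside it. Talins and kindlins bind and activate the integrin tails, the complex of integrin-linked kinase with PINCH and parvin proteins strengthens the link to actin, and the kinases FAK and Src phosphorylate scaffold proteins such as paxillin and p130Cas. In epithelial sheets the same actin network and several of the same proteins, vinculin, zyxin and alpha-actinin among them, also serve the cell-cell junctions that E-cadherin builds. The genes described here are 35 focal adhesion adaptors and kinases listed by symbol. Of these, 33 stood in the deposited table of 12851 dog genes, each on a single row, while LPXN and TGFB1I1 were not analysed here. All 33 passed the filter on low values, a mean of at least 10 normalized counts over 6 libraries.

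RNA was measured in MDCK Type II cells, an epithelial line from dog kidney. There were 3 libraries from wild-type cells under the control label (WT) and 3 from the same line with loss of E-cadherin function by knockout (KO), and both were grown in DMEM with serum. The labels name neither the number of knockout clones nor separate cultures. The p-values therefore reflect library-to-library spread alone, and that spread may be technical. Cell density is not known, because the labels speak of confluent dishes in one place and of 70 to 80% confluency in another.

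Each library summed to 18281500 to 19386800 normalized counts, the authors' read counts after scaling between libraries, so these totals are not the depth. The spacing of the low values gave an estimate of about 16884400 (WT replicate 1) to 22451400 reads (WT replicate 3), with the KO libraries between these. The targeted CDH1 transcript had WT values of 38542, 39643 and 39370 normalized counts and KO values of 1115, 1120 and 1237. Epithelial markers were abundant in both groups, with EPCAM at 8274 to 8977 in WT and 7713 to 8546 in KO, and 11 of 12 were in the table, 4 higher and 4 lower in KO. The summed level of those 11, the targeted gene included, was 86881 to 91396 in WT and 47680 to 50218 in KO. Of 8 immune markers 2 were in the table. CORO1A was low and rose, from 2.91 to 7.40 in WT to 11.4 to 21.1 in KO (adjusted p = 0.0188). CD79A, at 12390 to 14011 in WT and 13507 to 14608 in KO, did not pass. PTPRC, CD53 and CD3E were not in the table, and what the CD79A values measure was not tested. Of 11 smooth muscle and fibroblast markers 3 were in the table, summing to 633 to 724 in WT and 697 to 749 in KO. Most of that sum was MYH11, which did not pass, while both others rose: ACTA2 from 11.2 to 26.2 in WT to 54.0 to 61.0 in KO (adjusted p = 0.000143), and PDGFRA from 17.7 to 20.6 in WT to 28.7 to 40.4 in KO (adjusted p = 0.00809). None of 7 endothelial markers was in the table. The part of any of these markers in the results below was not tested.

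Most focal adhesion genes differed between WT and KO, in both directions and by small amounts. Of the 33, 13 were higher in KO, 10 were lower and 10 did not pass (limma, Benjamini-Hochberg adjusted over all tested genes, threshold 0.05). When libraries were rescaled to equal upper quartiles the split was 17 higher and 8 lower. Across all 12349 tested genes 23.6% were called higher and 24.5% lower. The 69.7% of focal adhesion genes called stands beside 48.1% of all tested genes, and beside 50.1% of tested genes with a mean of at least 100. The median size of change was 0.21 on the log2 scale for the focal adhesion genes, 0.21 for all tested genes and 0.18 for those with a mean of at least 100, while the median standard error was 0.057, 0.078 and 0.070. The median signed log2 change was 0.12, against -0.01 for all tested genes. In all, 26 of 33 had WT and KO values that did not overlap (78.8%, where 56.4% of all tested genes did not), among them all 23 called genes. A change of at least 1.5-fold was called for 7 of 33 (21.2%, against 17.0% of all tested genes): LIMS2, SRC, TNS2 and EVL were higher in KO, and PARVB, NEDD9 and TNS4 lower. Such increases were called for 10.4% and such decreases for 6.6% of all tested genes. The authors' deposited table, which draws on these same libraries, called the same 13 genes higher and the same 10 lower. Of the tested genes that hold an adjusted p there, it called 21.9% higher and 23.1% lower, 45% in either direction. In these bulk libraries, fewer cells of one kind and less RNA per cell cannot be told apart.

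**Figure D1:**
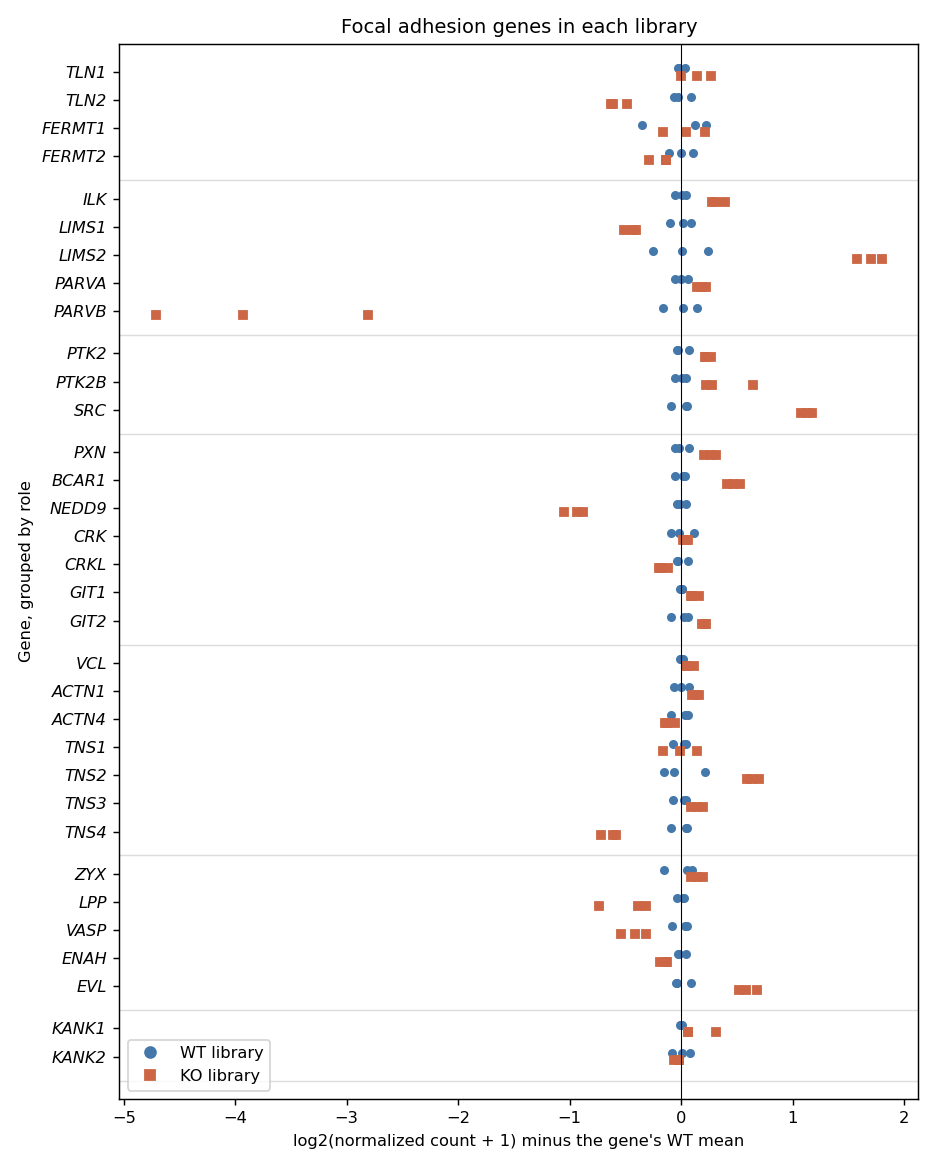
Each point is 1 library, WT as circles and KO as squares, placed by log2(normalized count + 1) minus the WT mean of that gene, with the 33 genes grouped by role. LIMS2, SRC, TNS2, EVL, TNS4, NEDD9 and PARVB lie more than 0.5 from the WT mean in all 3 KO libraries.

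Of the 4 integrin activators, TLN2 and FERMT2 were called lower, 0 were called higher, and TLN1 and FERMT1 did not pass. The share called was 50%, against 48.1% of all tested genes. TLN1 (ENSCAFG00845009262), the ubiquitous talin that links integrin tails to actin, measured 2809, 2692 and 2708 normalized counts in WT, against 3028, 2727 and 3303 in KO. The KO values overlapped the WT range through KO replicate 2, and TLN1 did not pass (log2 fold change 0.14, SE 0.062, adjusted p = 0.0858). It passed once that library was left out (adjusted p = 0.0146), under equal upper quartiles (adjusted p = 0.0302) and with a replicate block (adjusted p = 0.0494). With KO replicate 3 left out instead, its log2 change was 0.07 (adjusted p = 0.362). TLN2 (ENSCAFG00845019529), the second talin, fell from 286, 311 and 278 to 189, 190 and 207, a log2 change of -0.58 (SE 0.092, adjusted p = 0.000169), with every KO library below every WT library. The ratio of TLN1 to TLN2 within a library was 1.64-fold greater in KO than in WT, with no overlap between groups.

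Among the kindlins, FERMT2 (kindlin-2, the widely expressed form) fell slightly, from 1963, 2105 and 1822 to 1780, 1784 and 1601 (log2 fold change -0.19, SE 0.064, adjusted p = 0.0255). Leaving out WT replicate 1, WT replicate 2 or KO replicate 3 ended that call, with adjusted p = 0.0715, 0.0688 and 0.115. Equal upper quartiles (adjusted p = 0.0674) and plain limma, with neither trend nor robust moderation (adjusted p = 0.0961), ended it too. FERMT1, the epithelial kindlin-1, was low in these cells and did not pass: WT libraries held 108, 101 and 72.2 normalized counts and KO libraries 107, 95.3 and 82.4. Its 95% interval ran from -0.33 to 0.40 on the log2 scale, wider than that of the other 3 genes of this group.

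All 5 genes of the ILK-PINCH-parvin complex passed, and the largest changes of the 33 genes were here. In this complex a PINCH protein (LIMS1 or LIMS2) and a parvin (PARVA or PARVB) bind either side of ILK, and within each of these pairs 1 gene rose and the other fell. LIMS2 (PINCH-2, ENSCAFG00845020904) rose from 75.2, 53.0 and 63.7 to 208, 191 and 224 normalized counts. The KO libraries were all far above the WT libraries, a 3.24-fold increase (log2 fold change 1.69, SE 0.14, adjusted p = 4.04e-07). LIMS1 (PINCH-1, ENSCAFG00845008233) fell from 1385, 1458 and 1277 to 1017, 1034 and 959. Its groups did not overlap either, with a log2 change of -0.45 (SE 0.062, adjusted p = 4.37e-05). The log2 ratio of LIMS1 to LIMS2 was 4.19, 4.76 and 4.30 in the WT libraries and 2.28, 2.43 and 2.10 in the KO libraries, a 4.42-fold lower ratio.

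The parvins moved in the same opposed way, though PARVB was a low transcript. PARVB (beta-parvin, ENSCAFG00845012438) fell from WT values of 25.6, 28.0 and 22.4 to KO values of 0, 2.74 and 0.717, close to undetected in each KO library. Its log2 change of -3.82 (SE 0.49, adjusted p = 2.48e-05) depends on the pseudocount, being -4.36 with 0.5 and -2.32 with 5 added to each value. PARVA (alpha-parvin, ENSCAFG00845019108) rose from 1426, 1542 and 1478 to 1687, 1733 and 1632 (log2 fold change 0.18, SE 0.053, adjusted p = 0.0105). That call ended when WT replicate 1 or KO replicate 2 was left out, with adjusted p = 0.0602 and 0.0616. ILK (ENSCAFG00845008689), the pseudokinase at the centre of the complex, rose from 1887, 1760 and 1843 to 2213, 2280 and 2402. That 1.26-fold increase (log2 fold change 0.33, SE 0.052, adjusted p = 0.000142) kept its call without each library in turn.

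**Figure D2:**
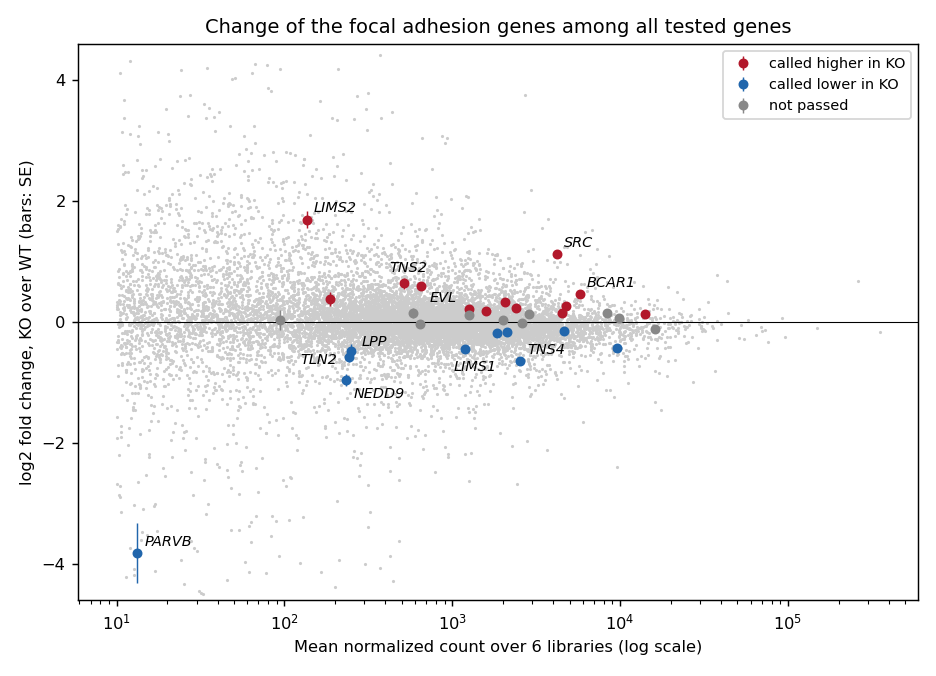
Each grey point is 1 of the tested genes and each coloured point 1 focal adhesion gene, with its mean over 6 libraries on a log axis and its log2 fold change of KO over WT (bars are standard errors). LIMS2 at 1.69, SRC at 1.13 and PARVB at -3.82 lie apart from the other focal adhesion genes, and 86 grey genes beyond 4.5 in either direction are not drawn.

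All 3 tyrosine kinase genes rose, SRC by far the most. SRC (ENSCAFG00845028314), the kinase that partners FAK at adhesions, rose from WT values of 2741, 2474 and 2718 to 5566, 5768 and 5961. Every KO library stood well above every WT library, a 2.18-fold increase (log2 fold change 1.13, SE 0.051, adjusted p = 8.14e-10). PTK2 (ENSCAFG00845012455), which encodes FAK, rose much less, from 2136, 2157 and 2305 to 2558, 2640 and 2573 (log2 fold change 0.24, SE 0.048, adjusted p = 0.00117). PTK2B, the related kinase PYK2, rose from 167, 163 and 156 to 189, 196 and 254 (log2 fold change 0.38, SE 0.12, adjusted p = 0.0183). The PTK2B call rested on KO replicate 3, the highest library, without which the log2 change was 0.25 (adjusted p = 0.0981). The ratio of PTK2 to PTK2B overlapped between the groups.

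The rise of SRC was shared by the genes around it. By RefSeq's gene order on the UU_Cfam_GSD_1.0 dog assembly, which served for neighbours only, 18 of the 20 tested genes nearest to SRC were called higher in KO and 0 lower, and their median log2 change was 0.95. Those nearest on either side, RPN2 and BLCAP, had log2 changes of 0.96 and 0.85, so that SRC lay 0.17 above the median of its surroundings. SRC belongs to the run from SMOX to UBE2V1, in which 157 of 160 tested genes were higher in KO with a median of 0.97. That run was already known from earlier results of these data, and what it has to do with the level of SRC was not tested. SRC was the only one of the 33 genes found within it, and without it 12 of the others were called higher. For the other 31 focal adhesion genes with a place in the gene order, the median of the neighbours lay between -0.20 and 0.10, so no comparable shift surrounded them. LIMS2 stood 1.69 above its neighbours, PARVB 3.84 below and NEDD9 1.05 below. FERMT2, by contrast, changed about as its neighbours did, by -0.19 against their median of -0.18. Of those 20, 10 were called lower and 7 higher, where 24.5% and 23.6% of all tested genes were. LIMS1 changed by -0.45 against a neighbour median of -0.20, with 10 of its 20 neighbours called lower and 3 higher. LPP was not placed.

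**Figure D3:**
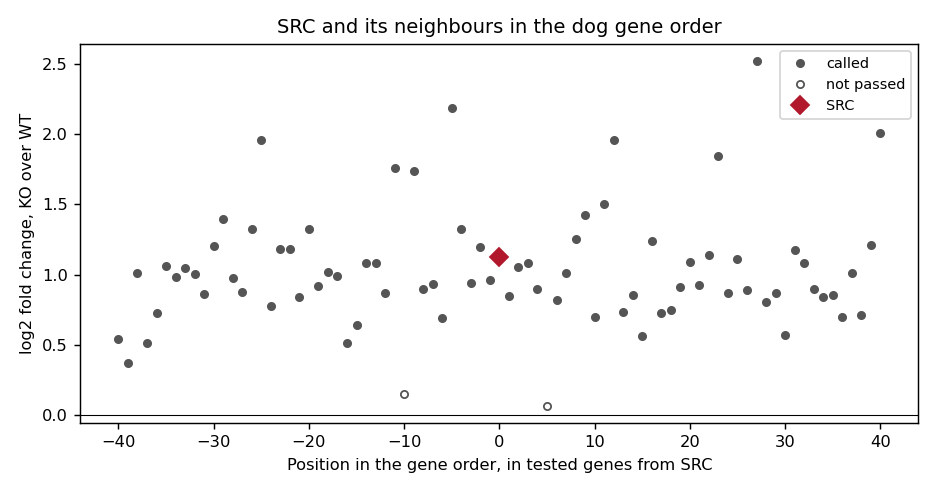
Each point is 1 tested gene, at its place in the gene order counted in genes from SRC (diamond), with its log2 fold change of KO over WT. Filled points passed the test, all drawn genes lie above 0, and MYL9 and KIAA1755 (open points, named after their values were seen) did not pass.

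Among the scaffolds that these kinases phosphorylate, the p130Cas family split. BCAR1 (p130Cas, ENSCAFG00845024268), a docking protein for Crk and a major Src substrate, rose from 4943, 4652 and 4893 to 6408, 6674 and 6944. No KO library fell within the WT range, with a 1.38-fold increase (log2 fold change 0.47, SE 0.045, adjusted p = 1.52e-06). NEDD9 (HEF1, ENSCAFG00845020672), a member of the same family, fell from 307, 302 and 318 to 161, 148 and 167. That is a 1.94-fold decrease (log2 fold change -0.96, SE 0.093, adjusted p = 1.54e-06). The log2 ratio of BCAR1 to NEDD9 averaged 3.96 ± 0.037 (SD, n = 3) in WT and 5.39 ± 0.090 (SD, n = 3) in KO, without overlap, a 2.68-fold greater ratio.

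PXN (paxillin, ENSCAFG00845029597), the scaffold that carries FAK and vinculin to adhesions, rose from 4266, 4159 and 4519 to 4966, 5210 and 5362. The groups did not overlap and the log2 change was 0.26 (SE 0.047, adjusted p = 0.000441). Of the SH2 adaptors that read phosphorylated paxillin and p130Cas, CRKL fell from 2172 to 2323 in WT to 1944 to 2052 in KO (log2 fold change -0.16, adjusted p = 0.0146), which no longer passed with KO replicate 3 left out (adjusted p = 0.0538) or under equal upper quartiles (adjusted p = 0.0548). CRK was at 1853 to 2137 in WT and 1994 to 2061 in KO and did not pass (95% interval -0.08 to 0.16). Of the paxillin-binding GIT proteins, which control Arf and Rac, GIT2 rose from 1091 to 1215 in WT to 1323 to 1355 in KO (log2 fold change 0.21, adjusted p = 0.00802). GIT1, at 1191 to 1208 and 1281 to 1342, did not overlap between groups but did not pass (adjusted p = 0.0768), and passed under equal upper quartiles (adjusted p = 0.0238).

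The abundant actin linkers changed little. VCL (vinculin), which couples talin and catenins to actin, was at 9586 to 9757 in WT and 9946 to 10494 in KO and did not pass (log2 fold change 0.07, SE 0.038, adjusted p = 0.153). Although the 3 KO values were all higher, the 95% interval of -0.01 to 0.15 held the change under 1.5-fold; VCL passed under equal upper quartiles (adjusted p = 0.0331). The crosslinker genes of the alpha-actinins showed small differences of opposite sign. ACTN1 rose from 12818 to 14108 in WT to 14413 to 14980 in KO (log2 fold change 0.13, adjusted p = 0.0180). It did not pass with WT replicate 1, KO replicate 2 or KO replicate 3 left out (adjusted p = 0.0632, 0.0678 and 0.0635) or in plain limma (adjusted p = 0.0962). ACTN4 was at 15801 to 17501 in WT and 15238 to 16175 in KO and did not pass (adjusted p = 0.0595), but passed with WT replicate 2 or KO replicate 3 left out (adjusted p = 0.00366 and 0.0424) and with a replicate block (adjusted p = 0.0359). Within each library the ratio of ACTN1 to ACTN4 was 1.18-fold greater in KO, without overlap.

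The tensins, which tie integrin tails to actin and carry SH2 domains, diverged most among the linkers. TNS4 (cten, ENSCAFG00845008016), the short tensin that lacks the actin-binding region of its relatives, fell from 3181, 2899 and 3205 to 1876, 2019 and 2059. All 3 KO libraries lay well below WT, a 1.56-fold decrease (log2 fold change -0.64, SE 0.055, adjusted p = 5.10e-07). TNS2 (ENSCAFG00845022708) moved the other way, from 382, 359 and 464 to 602, 619 and 650, a log2 change of 0.64 (SE 0.091, adjusted p = 6.05e-05). TNS3 rose from 4070 to 4392 in WT to 4554 to 4897 in KO (log2 fold change 0.15, adjusted p = 0.0214). Its call ended with WT replicate 2, KO replicate 2 or KO replicate 3 left out (adjusted p = 0.0510, 0.0710 and 0.0884) and in plain limma (adjusted p = 0.0818). TNS1 was at 2467 to 2676 and 2311 to 2864 and did not pass (log2 fold change -0.01, 95% interval -0.16 to 0.14). The ratio of TNS4 to TNS3 was tight within groups, with log2 values of -0.49 to -0.45 in WT and -1.28 to -1.23 in KO.

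The zyxin family and the Ena/VASP proteins, which promote actin filament growth at adhesions and junctions, also divided. VASP (ENSCAFG00845005094) fell from 11285, 10371 and 11393 to 7594, 8260 and 8837. The groups stood well apart, with a 1.34-fold decrease (log2 fold change -0.42, SE 0.056, adjusted p = 3.95e-05). ENAH (Mena) fell from 4796, 5027 and 4807 to 4431, 4453 and 4276 (log2 fold change -0.15, adjusted p = 0.00928). EVL (ENSCAFG00845004192), the remaining family member, rose from 500, 498 and 547 to 739, 772 and 826, a log2 change of 0.60 (SE 0.071, adjusted p = 1.06e-05). Zyxin itself, ZYX, showed WT values of 8230, 7155 and 8507 and KO values of 8454, 8761 and 9079. KO replicate 1 lay within the WT range and ZYX did not pass (adjusted p = 0.0667), but it passed without WT replicate 3 (adjusted p = 0.0169), under equal upper quartiles (adjusted p = 0.0233) and with a replicate block (adjusted p = 0.0268). With the low WT replicate 2 left out, its log2 change was 0.07 (adjusted p = 0.212). Its relative LPP fell from 296, 294 and 283 to 174, 222 and 233 (log2 fold change -0.48, SE 0.11, adjusted p = 0.00285). KANK1 and KANK2, talin-binding proteins that recruit cortical microtubules to the rim of adhesions, did not pass (log2 fold change 0.15 and -0.03, adjusted p = 0.136 and 0.717). KANK1 did not overlap between groups, at 548.0 to 554.0 in WT and 575.5 to 686.5 in KO. Its log2 change was 0.06 with KO replicate 3 left out.

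Related genes were compared directly by their log2 ratio within each library, with 1 added to each value. Where both genes are well above 0 this ratio hardly depends on scaling between libraries, but for a low gene such as PARVB it does. Of 18 pairs, 16 had both genes in the table, and the ratio did not overlap between WT and KO in 10. Among all tested genes taken singly 56.4% did not overlap, and the share among arbitrary pairs of genes was not computed. Pairs that share TNS3 or ENAH are not separate results. With 3 libraries a group the exact two-sided permutation test cannot give a p below 0.10. All 10 reached 0.10, and 0.16 after adjustment over the 16 pairs, so none could pass. In 5 pairs the limma fit called 1 gene higher and the other lower. These were PARVA and PARVB, LIMS1 and LIMS2, BCAR1 and NEDD9, TNS3 and TNS4, and ENAH and EVL. Among all tested genes 23.6% were called higher and 24.5% lower. How often arbitrary pairs of genes are called in opposite directions was not computed. The calls of PARVA and TNS3 ended when certain single libraries were left out. The remaining 5 without overlap were TLN1 to TLN2, ZYX to LPP, TNS2 to TNS3, ACTN1 to ACTN4 and CRK to CRKL, with ratios shifted 1.64-fold, 1.54-fold, 1.41-fold, 1.18-fold and 1.15-fold. The directions of all 16 ratio shifts held without each library in turn.

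**Figure D4:**
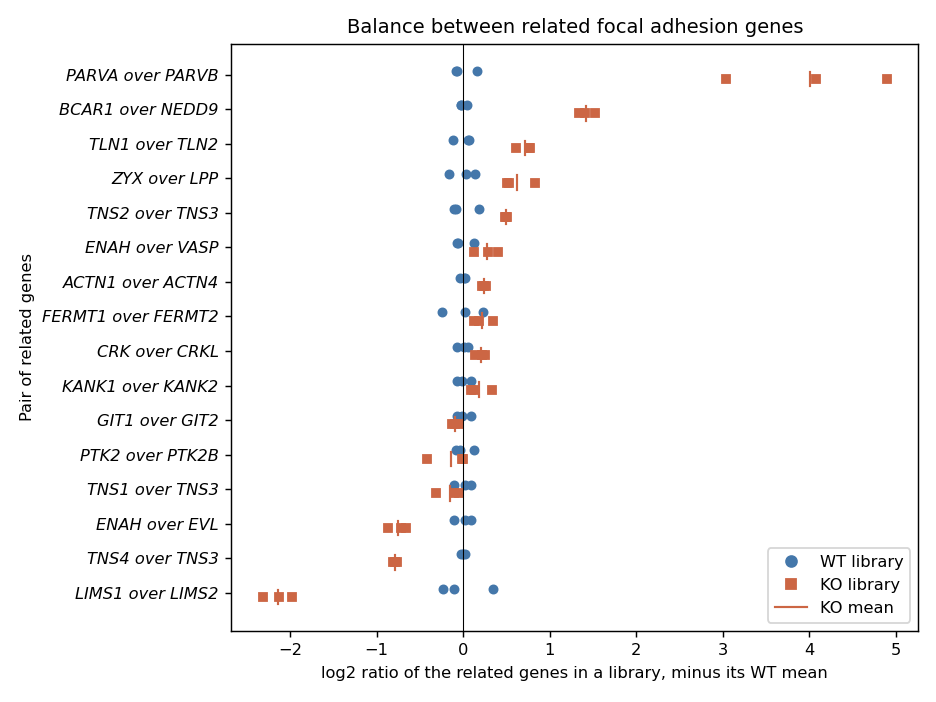
Each row is a pair of related genes, and each point the log2 ratio of the first to the second in 1 library, minus its WT mean (WT circles, KO squares, vertical mark for the KO mean). The ratio of PARVA to PARVB shifted most, and that of LIMS1 to LIMS2 had the largest decrease, -2.15.

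The surrounding pathway was read from lists of adhesion genes outside the 33, whose counts stand beside the 23.6% of all tested genes called higher, the 24.5% called lower and the 48.1% called in either direction. The share called was 66.7% in the list of Src family kinases and their partners, 65.2% among other focal adhesion and LIM domain proteins, 76.9% among integrin subunits and 50% in the microtubule complex. In the list of Src family kinases, phosphatases and SH2 adaptors, 6 of 18 tested genes were higher, 6 lower and 6 did not pass (median log2 change -0.08). The Src family kinase FYN fell from 177, 187 and 182 to 6.83, 5.75 and 6.23, a 25.2-fold decrease (adjusted p = 3.05e-10), whereas LYN rose from 1376, 1374 and 1393 to 2328, 2484 and 2379 (1.73-fold, adjusted p = 1.65e-08). FYN thus stood at under 7 normalized counts in each KO library, while SRC and LYN were higher there. BCAR3, an adaptor that binds p130Cas, rose from 27.9, 21.8 and 29.3 to 217, 179 and 172, a 6.97-fold increase (adjusted p = 1.13e-08). PTPRA, a receptor phosphatase that can activate Src, rose 1.96-fold (adjusted p = 4.70e-09), and lies between SMOX and UBE2V1 like SRC.

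In the list of other focal adhesion and LIM domain proteins, 6 of 23 tested were higher and 9 lower (median -0.04). The membrane protein caveolin 1, CAV1, fell 1.22-fold. FBLIM1 (migfilin), which binds kindlin, rose 2.35-fold, and FHL3 rose from 20.5, 24.9 and 17.2 to 64.7, 63.8 and 62.2.

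Of 13 tested integrin subunits, 3 were higher and 7 lower (median -0.17), and none changed by 1.5-fold. ITGB3, ITGA6 and ITGA1 fell 1.30-fold, 1.27-fold and 1.27-fold, and ITGAV rose 1.31-fold; the count of higher subunits was 1 without WT replicate 1, KO replicate 1 or KO replicate 2 and in plain limma, and 5 under equal upper quartiles. In the microtubule complex that KANK proteins bind, 1 of 8 tested genes was higher and 3 lower (median -0.06). KIF21A, the kinesin that KANK1 binds, fell from 1033, 1010 and 878 to 460, 419 and 454 (2.18-fold, adjusted p = 4.34e-08). ERC1 fell 1.41-fold and PHLDB1 1.18-fold, while CLASP1, which stabilises microtubule ends, rose 1.25-fold. The medians of these lists lay within 0.2 of the -0.01 of all tested genes.

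**Figure D5:**
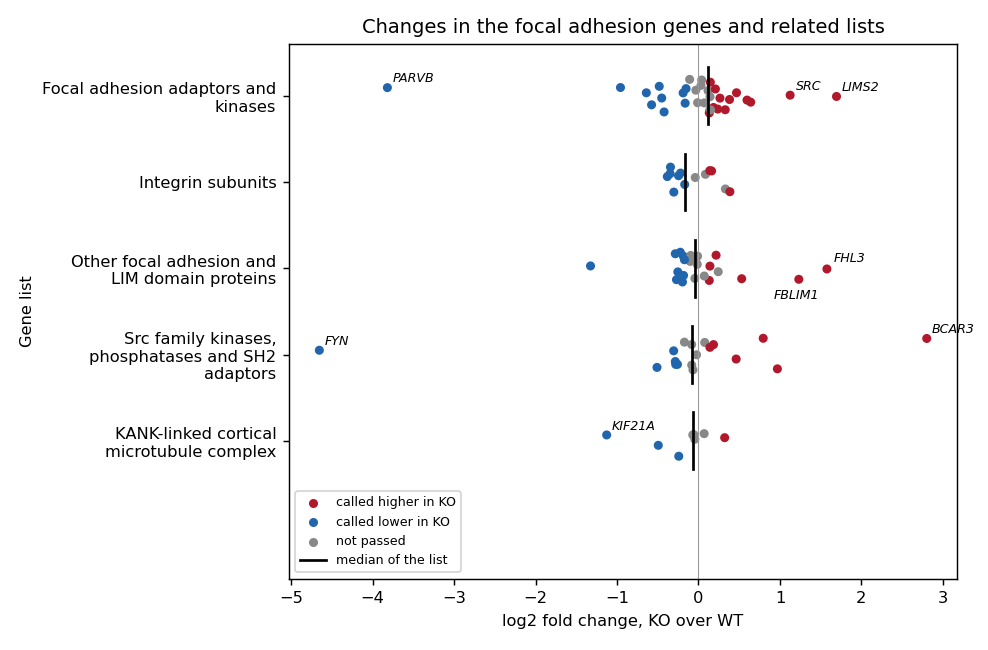
Each point is the log2 fold change of KO over WT for 1 tested gene, coloured by its call, with the median of each list as a vertical bar. The medians lie between -0.17 and 0.12, while single genes such as FYN at -4.65 and FHL3 at 1.58 lie far from them.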

How the data were processed

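The authors deposited 1 table of normalized counts, a signal per gene and library holding decimals, for 3 WT and 3 KO libraries. The submitters' processing notes name STAR 2.5.2b, featureCounts, DESeq2 1.14.1, Picard 2.8.1 and FastQC. Genome build: not given in the sources used here, nor is the annotation. Per the labels' protocols, stranded poly-A libraries were made with 250 ng RNA as input and read as 75-base pairs. The authors' log2 fold change, its error, a test score and a p-value, raw and adjusted, stand beside these values per the file headers. Of values under 12, 72.2 to 81.0% lay within 0.1 of a multiple of a common step per library, so whole reads were not recovered and no count test was run.

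On the log2(value + 1) scale, the 12349 genes whose mean reached 10 were fitted with limma 3.58.1 in R 4.3.3 (trend and robust empirical Bayes with statmod 1.5.0, two-sided, Benjamini-Hochberg over all of them). Fold changes are on that scale, which understates the change of low genes. The fit was tested on simulated data with changes of 1.5-fold or more, which does not speak to smaller changes. The 95% intervals come from the same fit and are not adjusted. Within-library ratios were tested by exact permutation (scipy 1.17.1). Alternatives were median-of-ratios and upper-quartile scaling, pseudocounts of 0.5 and 5, no filter or a minimum mean of 50, plain limma, a replicate block, omission of each library, a minimum fold of 1.5, the authors' deposited calls and omission of genes between SMOX and UBE2V1. Members, gene lists and tests were chosen with earlier results of these data known. All members were named, and YES1 and CSK were named after their values were seen. Of each further list, up to 4 called genes with the smallest adjusted p were named. A further list and 1 such gene are not reported here. Reads shared between related genes could not be assessed.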

Additional observations from a re-analysis of the deposited data

Results flagged for a closer look

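For 4 focal adhesion genes the authors' deposited mean, a column that the comparison did not use, lay above every one of the 6 libraries. The deposited mean was 3580 for TLN1 against a highest library of 3303, 171 for FERMT1 against 108, 2909 for TNS1 against 2864, and 750 for TNS2 against 650. Across the table no 6-library mean exceeded 1.5 times its deposited mean, the limit for a mean taken over 9 libraries. Libraries beyond the 6 are not analysed here and their source is unknown. Groups of 3 libraries were not tested for outlying samples.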

How the results depend on the processing

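Of the 33 focal adhesion genes, 22 kept their side of the threshold under each of 15 alternatives (14 for PARVB, which a minimum mean of 50 leaves out), 9 of them higher in KO and 8 lower; the minimum fold of 1.5 is not counted among these. The other 11, named with their values in the report, changed call in at least 1, and no called gene changed direction. Requiring 1.5-fold left 4 higher and 3 lower. Across the single-library omissions the counts ran from 10 to 14 higher and from 9 to 10 lower, and plain limma gave 11 and 9. The authors' deposited table, which draws on these same libraries and so is not independent, gave the same call for all 33. Its log2 change for PARVB is -4.70; for the others it differed from the value here by at most 0.02. Same-numbered WT and KO libraries did not deviate together (correlations of 0.05, -0.03 and -0.04), and not every library correlated best with its own number. A replicate block gave 15 higher and 11 lower. PARVB, at or under 2.74 in KO, is limited by depth.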
